A study of Mus musculus with 8 samples.

Results

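The comparison described here is that of TMZ-treated with control mouse embryos at the 8-cell stage. Its members are 4 of the 8 RNA-seq libraries of the study, 2 from control and 2 from TMZ-treated 8-cell embryos, and the other 4 libraries are morulae. Of 31899 entries in the 8-cell table, the 10021 with a mean of at least 1 FPKM (fragments scaled to the length of the gene and to the depth of the library) over the 4 libraries were tested. The study asked what an inhibitor of long-chain fatty acid β-oxidation does to gene expression before implantation.

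All embryos came from superovulated ICR mice of 7 weeks and were cultured in KSOM medium. Control embryos carry the genotype label WT. TMZ embryos carry the label TMZ inhibitor and were given trimetazidine (TMZ) at 100 μM from the 2-cell stage on. Both groups were collected as 8-cell embryos, at 70 h after injection of human chorionic gonadotropin, and the morulae at 78 h. RNA was amplified with a full-length mRNA kit made for small inputs. How many embryos went into a library, and what the control embryos were given in place of TMZ, is not given in the sources used here. The methods speak of 6 biological replicates and the study elsewhere of 2 independent ones, the labels list 2 libraries for each group without saying that they came from separate cultures, and p-values measure the spread between these libraries only. The 2 TMZ columns of the 8-cell table have the same header, and the libraries are therefore called TMZ library A and TMZ library B, without a replicate number.

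The table lists no gene names. Names were inferred from the length of each gene, which was recovered from the values, and from the order of Ensembl identifiers. This named 25228 entries, and 8928 of the 10021 tested, at a posterior probability of at least 0.95. For 3494 of the 8928, the annotated exonic length equalled the recovered length or was a small whole multiple of it. The other names rested on a differing length and on the order of entries. Of the genes so named, 75 of 75 for ribosomal proteins and 32 of 32 for the proteasome reached a mean of 1 FPKM, but 4 of 257 for olfactory receptors. The entries named Gapdh (0.938 to 1.79 FPKM) and Tuba1b (2.07 to 5.56 FPKM), genes that most cells express strongly, were low, which leaves a doubt about single names.

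β-oxidation shortens fatty acids in repeated rounds, and in each round a thiolase splits off acetyl-CoA. TMZ inhibits the long-chain 3-ketoacyl-CoA thiolase of this pathway. The 8-cell mouse embryo lives on transcripts of its own genome, has cleared most of the maternal RNA, and is about to compact, the step at which its cells flatten against each other and take up the polarity that precedes the split into trophectoderm and inner cell mass. Levels of a few stage and lineage markers are given here as examples. Dppa3, a maternal factor that the embryo goes on to express, was at 10695 and 14999 FPKM in the control and 19500 and 14607 FPKM in the TMZ libraries, and Sox15, a pluripotency-associated transcription factor, at 779 to 1162 FPKM. Pou5f1, a regulator of pluripotency, was at 10.9 to 19.5 FPKM, while Sox2 (0 to 0.120 FPKM), Eomes (0 to 0.0965 FPKM) and Cdx2 (0.368 to 1.10 FPKM) were near 0. Of 26 named genes of a trophectoderm list, however, 16 had a mean of at least 1 FPKM, among them Cldn4 (83.3 to 110 FPKM) and Klf5 (84.3 to 86.7 FPKM). So did 26 of 36 named maternal and oocyte transcripts, such as Omt2b (38.0 to 62.9 FPKM) and Khdc3 (23.7 to 32.7 FPKM).

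The 4 libraries held 40850061 and 32489992 fragments (control replicates 1 and 2) and 43035090 and 64814423 fragments (TMZ libraries A and B). The TMZ libraries stood farther apart than the controls. The SD of log2(FPKM + 1) between the libraries of a group was 0.541 under TMZ and 0.395 in controls, and for processed pseudogenes 0.651 and 0.384. Median-ratio scaling, in which every library is divided by its median ratio to the geometric mean over 9880 entries, used factors of 1.15 and 1.04 for the controls, 0.841 for TMZ library A and 1.01 for TMZ library B. Results are given for FPKM as deposited and, where they differ, also after this scaling.

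TMZ was compared with control by limma on log2(FPKM + 1), a scale that understates changes of low genes. An entry is said to have risen or fallen when its unadjusted P was under 0.05 and its log2 fold change beyond 0.5. The study's own volcano plots used these cut-offs, but on a different test, DESeq2 on raw counts. With FPKM as deposited 632 entries passed, 6.31% of those tested, while 5% of entries fall under this P when nothing differs. Of these, 135 rose (1.35%) and 497 fell (4.96%). After scaling 548 passed (5.47%), of which 268 rose (2.67%) and 280 fell (2.79%). The median tested entry had a log2 fold change of -0.19 as deposited and 0.01 after scaling, so the excess of falls came and went with the scale. On both scales 134 entries rose and 280 fell. No entry had an adjusted p under 0.05 (Benjamini-Hochberg, limma). The smallest was 0.154 as deposited, and 0.385 after scaling. Control and TMZ libraries did not overlap in 631 of the 632 entries, nor in 3775 of all 10021 tested. A low P all but requires this separation, so the first count adds no support. In bulk libraries such as these, fewer cells of a type and less RNA per cell cannot be told apart.

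The falls were spread unevenly over kinds of gene, a grouping made after the values were seen. Of 6997 protein-coding genes 171 fell (2.44%) and 62 rose (0.886%), with a median log2 fold change of -0.17. Processed pseudogenes, which are intronless copies of mRNAs set back into the genome, made up 13.9% of the named entries tested and 51.0% of the named entries that fell. Of 1243 processed pseudogenes 222 fell (17.9%) and 21 rose, with a median of -0.54. After scaling 133 fell (10.7%) and 45 rose, with a median of -0.37, while protein-coding genes then had 79 falls, 132 rises and a median of 0.04. Thus the pseudogenes lay below the protein-coding genes on either scale. Among 396 lncRNA genes 19 rose (4.80%) and 8 fell, and after scaling 33 rose and 5 fell. Of 39 snoRNA genes, whose products guide the modification of rRNA, 4 rose and 6 fell (15.4%). Their median of -0.57, and of -0.36 after scaling, was near that of processed pseudogenes. Among 29 genes grouped as other kinds 8 fell (27.6%), with a median of -0.70, and of -0.59 after scaling.

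**Figure D1:**
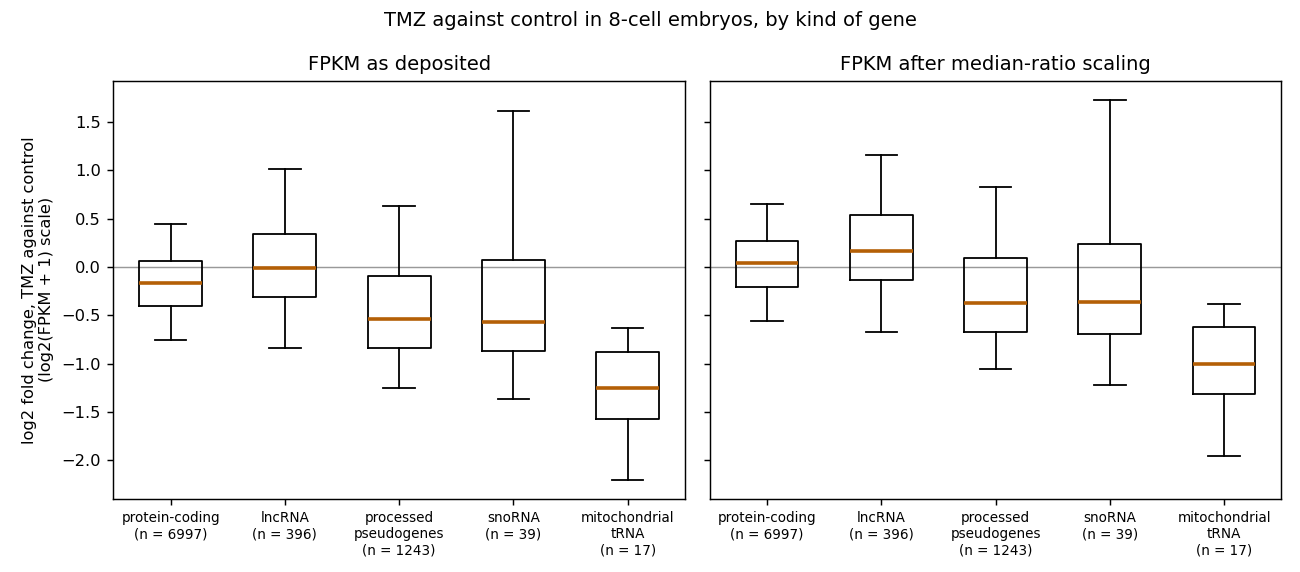
Log2 fold change of TMZ against control, on the log2(FPKM + 1) scale, for 5 kinds of gene, with FPKM as deposited (left) and after median-ratio scaling (right). Lines in the boxes are medians, boxes span the quartiles and whiskers the 5th to 95th percentile of genes. The medians of protein-coding genes are -0.17 and 0.04. Those of processed pseudogenes (-0.54 and -0.37), snoRNA genes (-0.57 and -0.36) and mitochondrial tRNA genes (-1.26 and -1.01) lie lower in both panels.

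TMZ library A carried most of the fall of the pseudogenes. Measured from the mean of both controls, the median processed pseudogene was at -0.82 in TMZ library A and at -0.27 in TMZ library B, against -0.25 and -0.10 for protein-coding genes. Without TMZ library A, 72 processed pseudogenes fell and 80 rose, at a median of -0.27. Without TMZ library B, 547 fell and 28 rose. Without control replicate 1, 65 fell and 14 rose, and without control replicate 2, 43 fell and 14 rose. Processed pseudogenes took 1.65% and 1.84% of all fragments in the controls, 1.24% in TMZ library A and 2.06% in TMZ library B, so their share of fragments was lowest in A and highest in B and did not separate the groups.

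The difference between kinds varied with how much sequence a pseudogene shares with other places of the genome. A processed pseudogene had a median of 55.3% of its 31-base stretches also elsewhere in GRCm39, a protein-coding gene 3.19%. Among the 56 processed pseudogenes with at most 5% of shared stretches 4 fell and 4 rose, and their median of -0.19 was that of the protein-coding genes of the same class (-0.19). In the classes of 5 to 20% (125 genes), 20 to 50% (369) and 50 to 80% (434) the medians were -0.59, -0.67 and -0.59, and 30, 92 and 74 genes fell. Above 80%, where 259 were tested, the median was -0.13 and 22 fell. In protein-coding genes the medians of the same 3 middle classes were -0.15, -0.07 and -0.07, and above 80% the median was 0.054, so the kinds lay apart in the middle classes. By level, the medians of processed pseudogenes were -0.52 at 1 to 2 FPKM, -0.62 at 2 to 5 FPKM, -0.65 at 5 to 10 FPKM, -0.45 at 10 to 50 FPKM and -0.14 above 50 FPKM, and those of protein-coding genes -0.16, -0.22, -0.22, -0.18 and -0.061. On the deposited scale both kinds were thus closest to 0 above 50 FPKM. After scaling, the medians of processed pseudogenes in these classes were -0.39, -0.45, -0.43, -0.22 and 0.11. Those of protein-coding genes were -0.026, -0.033, -0.0025, 0.059 and 0.19, so these were then farthest from 0 above 50 FPKM. Processed pseudogenes are short, with a median length of 473 bases against 4279, and at 1000 to 2000 bases their median was -0.48 (140 tested) against -0.17 for protein-coding genes, while above 2000 bases it was 0.023 (21 tested) against -0.17. How fragments that match several places were counted is not given in the sources used here, and the part of such fragments in the fall was not tested.

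Pseudogenes were set beside the genes they were copied from where the symbol names the parent, a pairing made after the values were seen. In 183 pairs with 118 parents, 32 pseudogenes fell and 3 rose, while 1 parent fell and 1 rose. The medians were -0.48 and -0.09, and 141 pseudogenes had a lower log2 fold change than their parent. In the 99 pairs of cytosolic ribosomal protein genes 19 pseudogenes fell and 3 rose, and of their 43 parents 0 passed the threshold. Rps18-ps1 is a copy of Rps18, a protein of the small ribosomal subunit. It was at 9.97 and 13.01 FPKM in the controls, 1.42 in TMZ library A and 4.71 in TMZ library B. Both TMZ libraries were thus below both controls, at a log2 fold change of -1.74 (SE 0.48, adjusted p = 0.759, limma), and Rps18 itself was at 195 and 202 FPKM against 121 and 204 FPKM (-0.33, adjusted p = 0.853, limma), where the groups overlapped. Uqcrh-ps2 is a copy of Uqcrh, a hinge protein of respiratory complex III, and was at 4.55 and 4.58 FPKM against 1.21 and 2.41 FPKM (50 and 40 against 14 and 42 fragments). It fell by 1.02 on the log2 scale (SE 0.41, adjusted p = 0.771, limma), and its parent was level, at 209 and 223 FPKM in the controls and 221 and 209 FPKM under TMZ (-0.01). In the opposite direction, Rpl23a-ps4 was at 1.08 and 0.135 FPKM in the controls and 5.00 and 6.92 FPKM under TMZ, a log2 fold change of 2.17 (adjusted p = 0.620, limma), while Rpl23a was at 110 to 115 FPKM in all 4 libraries. The TMZ levels of Rpl23a-ps4 carried it over the filter of 1 FPKM.

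Both pairs of falling copies are shown because they differ in how much sequence they share with other places. Over the aligned 456 coding bases Rps18-ps1 has 8 bases that differ from Rps18 (98.2% identity), and 66.4% of its 31-base stretches occur elsewhere. Uqcrh-ps2 differs from Uqcrh at 13 of 266 bases (95.1% identity) and has 2.09% of its stretches elsewhere. The lines below give 90 bases of each in GRCm39, 5′ to 3′ on the coding strand, with the bases that differ within a pair in capitals: 3 in the first pair and 5 in the second. In the parents these bases are joined from exons, and in the pseudogenes they lie in 1 piece.
Rps18 (coding bases within chr17:34171555-34174130, minus strand): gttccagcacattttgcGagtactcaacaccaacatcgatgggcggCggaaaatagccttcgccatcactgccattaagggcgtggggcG
Rps18-ps1 (chr4:71289321-71289410, minus strand): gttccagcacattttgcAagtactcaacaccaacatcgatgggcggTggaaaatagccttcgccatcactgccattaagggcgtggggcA
Uqcrh (coding bases within chr4:115927207-115932166, minus strand): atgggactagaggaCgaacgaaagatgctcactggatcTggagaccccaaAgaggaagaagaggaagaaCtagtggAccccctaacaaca
Uqcrh-ps2 (chr2:118838690-118838779, plus strand): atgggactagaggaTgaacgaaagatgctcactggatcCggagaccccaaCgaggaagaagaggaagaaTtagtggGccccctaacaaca

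Near-identical copies make the level of a pseudogene uncertain. Rps19-ps1 and Rps19-ps2 lie apart on chromosome 14 and share all of their 31-base stretches with other places. Both were listed at 32.9 FPKM in control replicate 1 and at 5.57 FPKM in TMZ library A, and at 34.6 and 34.5 FPKM in control replicate 2. The values at both places were nearly the same in every library, so it is uncertain which copy was measured, and these falls (-1.50 each) cannot be taken as independent. The entry with the smallest adjusted p of the table, H2ac14-ps (chromosome 13, 21905627 to 21905978), is a histone pseudogene with 93.5% shared stretches. It was at 21.2 and 24.6 FPKM in the controls and at 1.58 and 0.307 FPKM under TMZ.

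The mitochondrial tRNA genes fell most uniformly of all kinds. The mitochondrial genome is transcribed as long precursors, in which tRNAs stand between the mRNAs and rRNAs and are cut out by processing. The libraries were made with an mRNA kit. Whether fragments on tRNA genes came from mature tRNAs or from precursors was not tested, so the values below are not levels of mature tRNA. Of 17 mitochondrial tRNA genes tested 14 fell (82.4%) and 0 rose, and in all 17 both TMZ libraries lay below both controls. On the deposited scale the same order held for 1888 of 6997 protein-coding genes and 657 of 1243 processed pseudogenes. As the tRNA genes share precursors, they are not independent of each other. The median log2 fold change of the tRNA genes was -1.26, and after scaling 8 fell with a median of -1.01. The library medians against the controls were -1.41 in TMZ library A and -0.68 in TMZ library B. Without TMZ library A 10 genes fell, without TMZ library B 16, without control replicate 1 7 and without control replicate 2 8. As a share of all fragments they took 0.0353% and 0.0335% in controls, 0.0157% in TMZ library A and 0.0205% in TMZ library B. Of the 8 genes with at most 20% of shared stretches 7 fell, with a median of -1.28.

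mt-Ti, the tRNA for isoleucine, was at 99.3 and 103 FPKM in the controls, 9.43 in TMZ library A and 46.5 in TMZ library B, which are 280, 232, 28 and 208 fragments. It was lower in both TMZ libraries, most in A, at a log2 fold change of -2.20 (SE 0.59, adjusted p = 0.749, limma). The tRNA for phenylalanine, mt-Tf, went from 72.4 and 57.5 FPKM to 14.4 and 25.4 FPKM (-1.70, SE 0.36, adjusted p = 0.620, limma). mt-Tm, the tRNA for methionine and thus for the start of translation, was at 654 and 608 FPKM against 123.3 and 363 FPKM (-1.57, adjusted p = 0.759, limma). None of these 3 shares any 31-base stretch with another place, and in none did the groups overlap. The sequences of these genes in GRCm39 are shown because none of their own 31-base stretches occurs elsewhere. How far the counted fragments reach into neighbouring genes was not tested. All are encoded on the plus strand, each as a gene of 1 exon, and capitals mark the anticodon.
mt-Ti (chrM:3706-3774): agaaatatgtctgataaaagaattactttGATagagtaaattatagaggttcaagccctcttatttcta
mt-Tf (chrM:1-68): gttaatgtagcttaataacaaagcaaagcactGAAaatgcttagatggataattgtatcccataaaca
mt-Tm (chrM:3845-3913): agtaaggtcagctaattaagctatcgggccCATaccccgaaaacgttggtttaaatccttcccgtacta

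Among the genes on the minus strand, mt-Tn (asparagine) had the largest fall, from 7.93 and 12.6 FPKM to 0.982 and 0.435 FPKM (-2.71, SE 0.42, adjusted p = 0.307, limma). These are 23, 29, 3 and 2 fragments, and all of its 31-base stretches also occur elsewhere. mt-Tq (glutamine) was at 1747 and 1644 FPKM against 972 and 877 FPKM, and mt-Tp (proline) at 1278 and 1318 FPKM against 735 and 898 FPKM. These abundant genes fell by 0.88 and 0.67 on the log2 scale as deposited, in both TMZ libraries to a like level, and neither passed the threshold after scaling. The 3 genes that did not pass were mt-Tc (-0.64), mt-Tl2 (-0.63) and mt-Tr (-0.51).

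**Figure D2:**
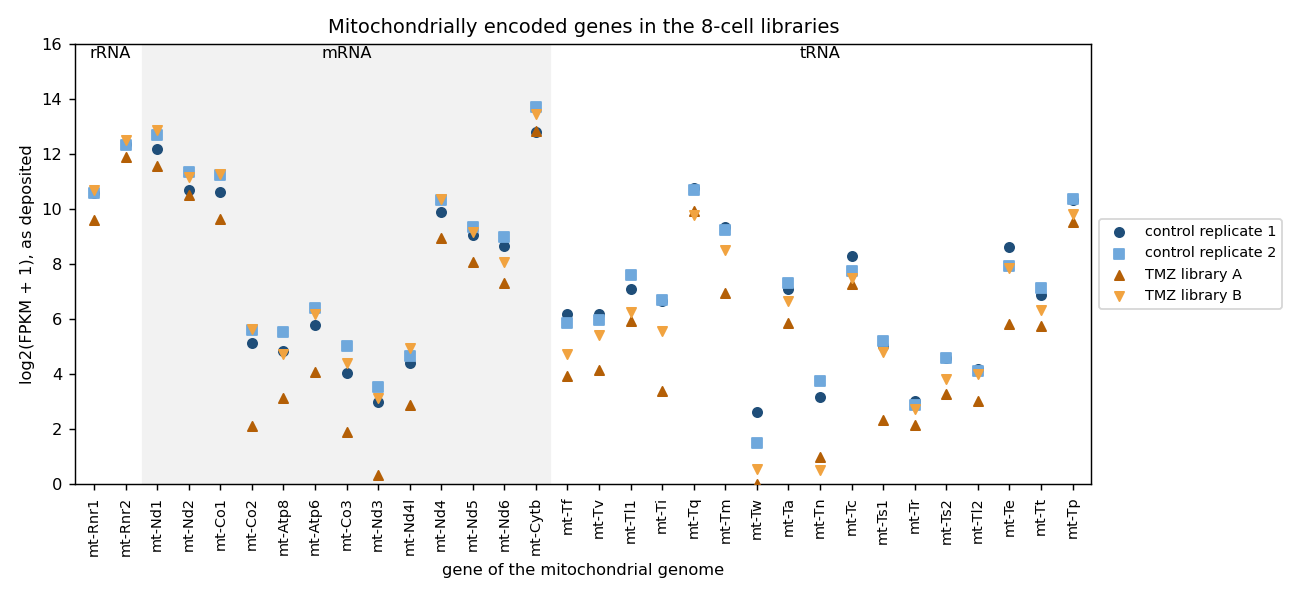
Level of each mitochondrially encoded gene on the log2(FPKM + 1) scale in the 4 8-cell libraries, grouped into rRNA, mRNA and tRNA genes and in genome order within each class. For all 17 tRNA genes both TMZ libraries (triangles) lie below both controls (circles and squares), while for most mRNA genes only TMZ library A does. Among all protein-coding genes, not shown, both TMZ libraries lay below both controls in 1888 of 6997.

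The mRNAs and rRNAs between these tRNAs did not share the pattern. Of 13 mitochondrial mRNAs 2 fell, mt-Nd6 and mt-Atp8, and the groups overlapped in the other 11. mt-Nd6, the complex I subunit encoded on the minus strand, was at 403 and 503 FPKM against 156 and 267 FPKM (-1.14, SE 0.31, adjusted p = 0.759, limma), and did not pass without control replicate 2 (-0.98). mt-Atp8, a subunit of ATP synthase, was at 27.8 and 45.7 FPKM against 7.86 and 25.7 FPKM (-1.25, adjusted p = 0.771, limma). Its log2 fold change was -0.46 without TMZ library A, and all of its stretches occur elsewhere. Most of the other mRNAs split the TMZ libraries. mt-Co1, the catalytic subunit of complex IV, was at 1557 and 2422 FPKM in the controls, 799 in TMZ library A and 2451 in TMZ library B. In mt-Cytb, the most abundant of the mRNAs, both TMZ libraries (7326 and 11365 FPKM) lay between the controls (7187 and 13254 FPKM). The large rRNA mt-Rnr2 was at 5219 and 5162 FPKM against 3834 and 5814 FPKM. The median of the mRNAs was -0.60 and that of the 2 rRNAs -0.28. Mitochondrial mRNAs took 1.93% and 3.13% of fragments in controls, 1.53% in TMZ library A and 2.95% in TMZ library B, so their total was low in A only. Neither the strand setting of the counting nor the handling of fragments that reach from a tRNA into its neighbour is given in the sources used here, and the part of both in these values was not tested.

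Of 6278 protein-coding genes with at most 20% of shared stretches, 37 rose and 72 fell on both scales with no overlap of the groups, and the 12 largest of each are described here, with whole-gene coordinates in GRCm39. In the order of size, the rises were in Prl7b1, Nxf2, Pkn3, Cldn34d, Cyp7b1, Polg2, Rnf138rt1, Etd, Atg10, Rnf103, Gadd45g and Cst7. Prl7b1 (chromosome 13, 27785802 to 27794565), of the prolactin hormone family, was at 1.56 and 1.80 FPKM in the controls and at 7.08 and 16.4 FPKM under TMZ. That is a log2 fold change of 2.15 (SE 0.46, adjusted p = 0.620, limma), with both TMZ libraries well above both controls. Pkn3 (chromosome 2, 29967696 to 29981035), a serine/threonine kinase of the protein kinase N family, was at 2.36 and 3.25 FPKM against 11.7 and 12.2 FPKM (1.78, SE 0.37, adjusted p = 0.620, limma). It is the rise in which the TMZ libraries lay closest together. Polg2 (chromosome 11, 106658823 to 106670384), the accessory subunit of the polymerase that copies mitochondrial DNA, was at 3.79 and 4.37 FPKM against 11.96 and 20.1 FPKM (1.70, SE 0.39, adjusted p = 0.620, limma). Atg10 (chromosome 13, 91082795 to 91398070), a conjugating enzyme in the formation of autophagosomes, was at 11.3 and 14.3 FPKM against 28.2 and 48.3 FPKM (1.47, SE 0.37, adjusted p = 0.749, limma). Both genes were higher in TMZ library B than in A. These 4 rises passed the threshold when any 1 library was left out.

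Other rises did not pass the threshold without a particular library. Nxf2 (chromosome X, 133845274 to 133865516), an mRNA export factor of the germ line, was at 3.95 and 27.6 FPKM in the controls and 73.2 and 35.2 FPKM under TMZ, with a log2 fold change of 2.12 that became 0.86 without control replicate 1. Cyp7b1 (chromosome 3, 18117411 to 18297740), a hydroxylase of oxysterols, was at 17.4 and 4.21 FPKM against 21.4 and 45.1 FPKM. Its value of 1.72 became 0.81 without control replicate 2. Cst7 (chromosome 2, 150412284 to 150420864), an inhibitor of lysosomal cysteine proteases, was at 39.6 and 23.3 FPKM against 56.8 and 106 FPKM, and its 1.32 became 0.95 without control replicate 2. In these 3 genes the controls differed from each other, though the groups did not overlap. Gadd45g (chromosome 13, 52000714 to 52002508), a stress-induced inhibitor of growth, was at 0.710 and 1.05 FPKM against 4.93 and 2.78 FPKM (1.34, adjusted p = 0.771, limma), and did not pass without control replicate 1 (1.21). Cldn34d (1.75), Rnf138rt1 (1.64), Etd (1.63) and Rnf103 (1.35) stood below 2 FPKM in both controls. The control means of these genes and of Gadd45g were below 1 FPKM. They thus met the filter of 1 FPKM only through the TMZ libraries, which favours rises.

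The largest falls were in Slc30a2, Faxdc2, Ybx3, Cyp2e1, Slc39a4, Pin1rt1, Zfp3, Sct, Btg4, Brme1, Zdhhc12 and Bst2. Slc30a2 and Slc39a4 both carry zinc, the former out of the cytosol and the latter into the cell. Slc30a2 (chromosome 4, 134070234 to 134081795) was at 5.49 and 10.8 FPKM in the controls and 1.63 and 1.01 FPKM under TMZ (-1.93, SE 0.44, adjusted p = 0.620, limma). Slc39a4 (chromosome 15, 76496580 to 76504172) was at 52.8 and 34.6 FPKM against 10.6 and 15.5 FPKM (-1.66, SE 0.36, adjusted p = 0.620, limma). For both, each TMZ library was well below each control. Ybx3 (chromosome 6, 131341810 to 131365448), a cold shock domain protein that binds RNA, was at 51.0 and 64.2 FPKM against 13.04 and 20.5 FPKM (-1.75, SE 0.34, adjusted p = 0.620, limma). Btg4 (chromosome 9, 50972201 to 51031175), an adapter that brings the deadenylase to maternal mRNAs for their decay, was at 7.09 and 7.48 FPKM against 1.53 and 2.12 FPKM (-1.56, SE 0.38, adjusted p = 0.749, limma). In Btg4 both the controls and the TMZ libraries lay close together. Brme1 (chromosome 8, 84874654 to 84899253), a factor of meiotic recombination, was at 6.74 and 5.32 FPKM against 1.26 and 1.53 FPKM (-1.55, SE 0.39, adjusted p = 0.749, limma). These falls, and those of Pin1rt1 (-1.66) and of the zinc finger gene Zfp3 (-1.63), which was listed at 0 in TMZ library A, passed when any 1 library was left out.

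Of the remaining falls, Cyp2e1 (chromosome 7, 140343652 to 140355167), a cytochrome P450 that oxidises ethanol and fatty acids, rested on TMZ library A. It was at 9.54 and 6.66 FPKM in the controls, 0.301 in TMZ library A and 5.18 in TMZ library B, and its -1.66 became -0.54 without TMZ library A. Faxdc2 (chromosome 11, 57954378 to 57983960), of the fatty acid hydroxylase family, was at 7.75 and 18.5 FPKM against 1.30 and 5.23 FPKM (-1.79, and -1.21 without control replicate 2). Sct, which encodes the hormone secretin (-1.61), the palmitoyltransferase Zdhhc12 (-1.52) and Bst2 (-1.50), an antiviral membrane protein, did not pass without control replicate 1. Zdhhc12 (chromosome 2, 29980799 to 29983935, minus strand) overlaps the end of Pkn3 on the opposite strand. It was at 5.38 and 2.72 FPKM against 0.312 and 1.19 FPKM, so the 2 overlapping genes moved in opposite directions. Without the strand setting their shared fragments cannot be assigned. The TMZ means of Zdhhc12 (0.753 FPKM) and Zfp3 (0.307 FPKM) were below 1 FPKM. Both genes thus met the filter of 1 FPKM only through the controls, which favours falls, and the fits that left out 1 library kept that filter.

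**Figure D3:**
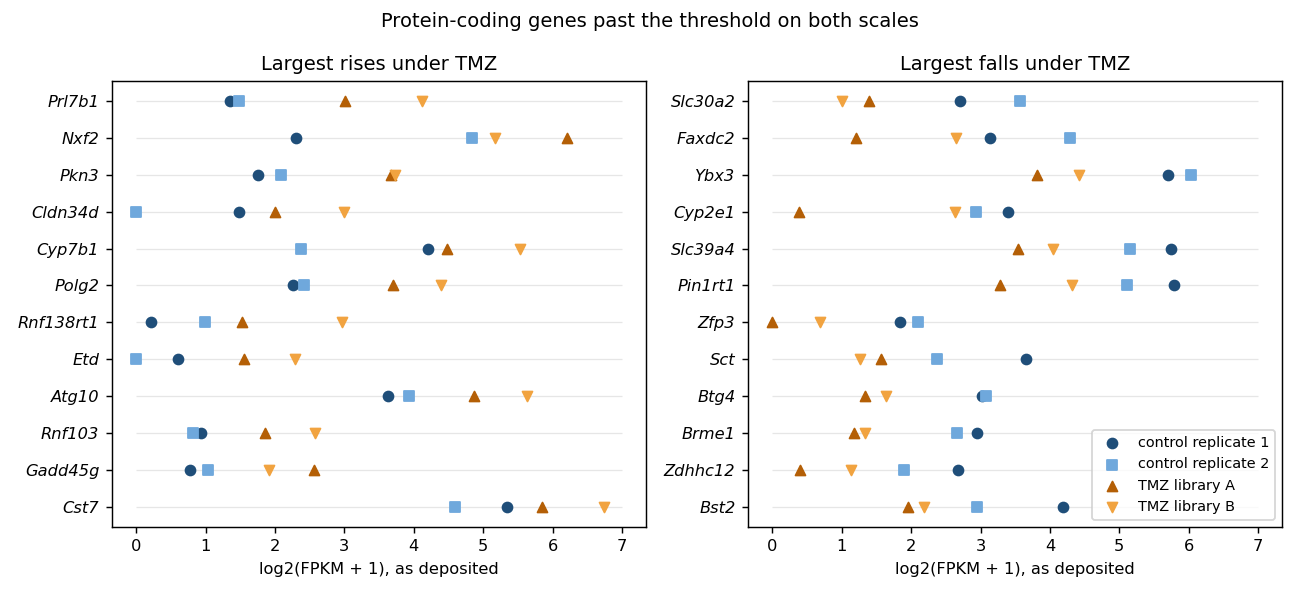
Level on the log2(FPKM + 1) scale, as deposited, in each 8-cell library for the 12 largest rises (left) and 12 largest falls (right) among protein-coding genes past the threshold on both scales. In each gene both TMZ libraries (triangles) lie on one side of both controls (circles and squares). The controls lie far apart in Nxf2, Cyp7b1 and Cldn34d.

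No thiolase and no gene of mitochondrial β-oxidation passed the threshold. Thiolases cleave 3-ketoacyl-CoA, in mitochondria through Acaa2 and the Hadhb subunit of the trifunctional protein, and in peroxisomes through Acaa1a, Acaa1b and Scp2. Acaa2 was at 11.05 and 11.7 FPKM in the controls and at 8.77 and 5.85 FPKM under TMZ. Both TMZ libraries were below both controls, at a log2 fold change of -0.60 (SE 0.37, adjusted p = 0.795, limma), and of -0.37 after scaling. Hadhb was at 21.4 and 17.5 FPKM against 22.2 and 15.7 FPKM (-0.05), and Hadha, the other subunit of the trifunctional protein, at 2.48 and 1.09 FPKM against 1.32 and 1.03 FPKM (-0.32). In both the groups overlapped. Acat1, which makes and cleaves acetoacetyl-CoA in mitochondria, had -0.41, its cytosolic relative Acat2 -0.42, and Scp2 -0.20. The 5 thiolases tested had a median of -0.41, and of -0.17 after scaling. Acaa1a, Acaa1b and Acat3 were below 1 FPKM and were not tested.

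Of 15 genes of mitochondrial β-oxidation tested 0 passed the threshold, with a median of -0.17 against -0.19 for all tested entries. Acadl, the long-chain acyl-CoA dehydrogenase, was the most abundant of those the study names, at 135 and 73.1 FPKM in the controls and 77.7 and 53.3 FPKM under TMZ (-0.62, SE 0.36, adjusted p = 0.790, limma). The groups overlapped. Hadh (-0.02) and Echs1 (0.09), which carry out the steps before the thiolase, were close to 0. Cpt1a and Cpt2, the carnitine transferases that let long-chain fatty acids into mitochondria, had means of 0.960 and 0.584 FPKM, and Acsl5 was at 0.0285 FPKM in TMZ library B and at 0 elsewhere. No entry was assigned to Cpt1b. In peroxisomes 1 of 16 genes fell, the dienoyl-CoA reductase Decr2 (11.5 and 10.4 FPKM against 5.39 and 4.82 FPKM, -0.97), and this gene did not pass after scaling.

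The other gene lists gave few calls. Over 39 lists 1008 members were tested, and 46 passed the threshold (4.56%), of which 9 rose and 37 fell. After scaling 13 rose and 9 fell (2.18%). The background was 6.31% and 5.47% for all tested entries, pseudogenes included, and on the deposited scale 0.886% rises and 2.44% falls for protein-coding genes alone. In 14 lists no member passed on the deposited scale. With 1 library left out, Zscan4d was at 1.46 to 1.97 and Btg4 at -1.71 to -1.41. Zscan4d, below 1 FPKM in both controls, was tested only because of its TMZ levels, and these fits kept that filter. No other member that passed did so in every such fit. Sdha (-0.83) and Ndufs7 (-0.93), for example, did not pass without control replicate 1, nor Psmb10 (-1.15) and Cldn6 (-1.21) without control replicate 2. In carbon metabolism 3 of 17 TCA cycle genes fell, namely Sdha (7.92 and 4.95 FPKM against 2.64 and 2.07 FPKM, -1.12), which is also a subunit of complex II, the fumarase Fh1 (-0.98) and the isocitrate dehydrogenase Idh2 (-0.86). All 17 were below 0, as were 4858 of 6997 protein-coding genes, and their median was -0.46. After scaling 13 of the 17 were below 0, against 3208 of the protein-coding genes. The TCA cycle median was then -0.23, and Sdha alone passed. No member passed in glycolysis and pyruvate use (18 tested), fatty acid synthesis, elongation and desaturation (13), lipid droplet and triglyceride genes (12), or acetyl-CoA supply and H3K18 acetylation (17). Of 20 genes of cholesterol synthesis the demethylase Cyp51 fell (-1.07), on the deposited scale only.

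**Figure D4:**
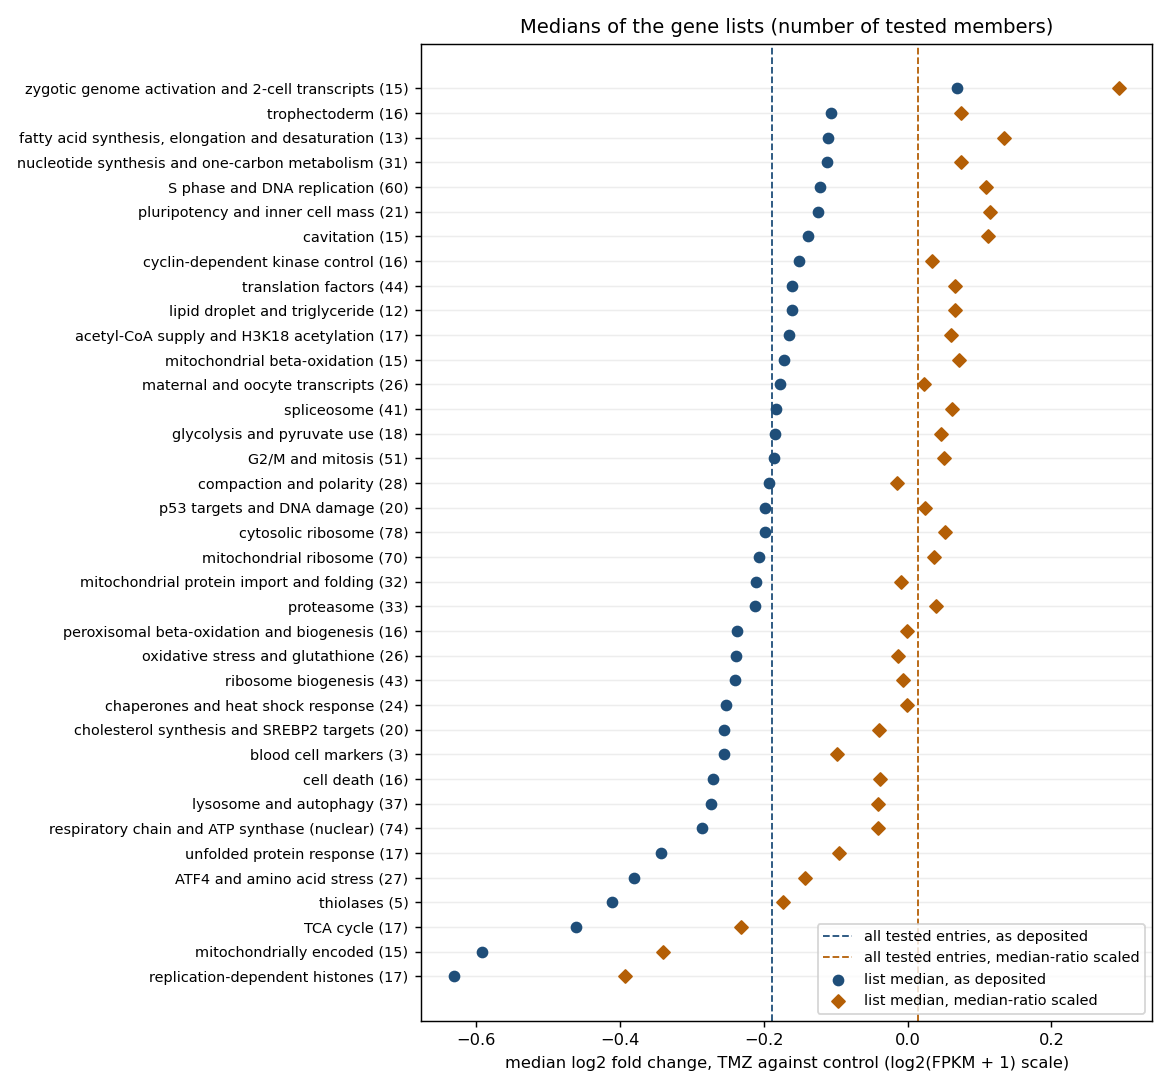
Median log2 fold change of TMZ against control in 8-cell embryos for each gene list with at least 3 tested members, with FPKM as deposited (circles) and after median-ratio scaling (diamonds). Dashed lines mark the medians of all tested entries (-0.19 and 0.01). Replication-dependent histones (-0.63 and -0.39) lie lowest and transcripts of zygotic genome activation (0.07 and 0.29) highest.

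In the respiratory chain 4 of 74 nuclear genes fell. Ndufs7, a subunit of complex I, was at 111 and 105 FPKM against 50.2 and 59.3 FPKM (-0.97, SE 0.28, adjusted p = 0.771, limma), and the TMZ libraries lay close together below both controls. Sdha, Ndufa11 (-0.74) and the ATP synthase subunit Atp5f1e (-0.73) were the others, and Ndufs7 and Sdha also passed after scaling. Of 78 genes of the cytosolic ribosome 0 passed on either scale, with a median of -0.20. In the mitochondrial ribosome 3 of 70 fell (Mrps26, Mrpl39 and Mrpl28), none of them after scaling, where Mrps6 (0.84) rose instead. In the proteasome 2 of 33 fell, Psmb10, a catalytic subunit of the immunoproteasome (16.8 and 22.5 FPKM against 7.35 and 6.68 FPKM, -1.35), and Psmb4 (-0.70). Only Psmb10 of these passed after scaling.

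In the cell cycle lists members moved both ways. Of 60 S phase and DNA replication genes 1 rose and 2 fell. Pola2, the B subunit of DNA polymerase alpha, was at 15.1 and 20.9 FPKM against 65.3 and 28.6 FPKM (1.24, and 0.66 without TMZ library A). Pold2, a subunit of DNA polymerase delta (-0.98), and Wdhd1, which couples polymerase alpha to the helicase (-0.91), fell, and neither passed after scaling, where Pola2, Orc6 (0.87) and Gmnn (0.72) rose. The replicative helicase subunit Mcm4 was at 16.5 and 15.2 FPKM against 11.6 and 10.5 FPKM, at a log2 fold change of -0.48 (SE 0.33, adjusted p = 0.809, limma). Both TMZ libraries were below both controls, but the value missed the threshold on both scales. Of 51 genes of G2/M and mitosis, Cks2, a partner of cyclin-dependent kinases, rose (1719 and 2161 FPKM against 3846 and 3186 FPKM, 0.86). Of its 31-base stretches 54.6% occur elsewhere, so it is uncertain which copies were measured. Pttg1, the securin that holds back separase, rose as well (0.80, and 0.37 without control replicate 1). The spindle checkpoint kinase Bub1b (-1.20) and the spindle protein Dlgap5 (-0.92) fell. The TMZ means of Bub1b (0.580 FPKM) and Wdhd1 (0.816 FPKM) were below 1 FPKM, so both met the filter only through the controls. The histone list had the lowest median (-0.63, 17 tested), with H4c9 lower at -1.17 and 36.7% of its 31-base stretches elsewhere. The summed level of the list, however, was 350 and 265 FPKM in the controls, 111 in TMZ library A and 383 in TMZ library B. The list median was 0.25 without TMZ library A.

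In stage and lineage lists 2 of 15 transcripts of zygotic genome activation rose. Zscan4d, of a family expressed in bursts at the 2-cell stage, was at 0.345 and 0.163 FPKM against 3.89 and 2.45 FPKM (1.72, SE 0.38, adjusted p = 0.620, limma), and the deubiquitinase Usp17lb at 5.00 and 11.7 FPKM against 12.97 and 22.1 FPKM (1.04). Of their 31-base stretches 66.9% and 29.4% occur elsewhere, in part in near-identical relatives, so it is uncertain which copies were measured. Of 26 maternal and oocyte transcripts Btg4 alone fell. No gene passed on either scale among trophectoderm (16 tested), pluripotency (21) or compaction and polarity genes (28). In the cavitation list the tight junction protein Cldn6 fell (11.3 and 14.5 FPKM against 3.24 and 5.72 FPKM, -1.37, SE 0.40, adjusted p = 0.771, limma) and passed after scaling too.

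Stress and degradation lists moved little. In the lysosome and autophagy list 3 of 37 genes fell, among them the saposin precursor Psap (-1.02) and the glycosidase Gaa (-1.01), and Gaa alone passed after scaling. Calr (-0.95) and Pdia3 (-0.64), chaperones of the endoplasmic reticulum, fell among 17 genes of the unfolded protein response on the deposited scale, while its member Dnajb9 (0.68) rose after scaling. Single genes fell in the lists of ATF4 and amino acid stress (Cars1, -0.97), oxidative stress (Txn1, -0.94), chaperones (Cct7, -0.60), cyclin-dependent kinase control (E2f4, -0.80) and mitochondrial import (Timm44, -0.79), and none of these passed after scaling. In RNA biology, the splicing factors Hnrnpa1 (231 and 229 FPKM against 527 and 321 FPKM, 0.83) and Srsf5 (0.65) rose on both scales, as did the initiation factor Eif1 (0.53). Of their 31-base stretches 45.5% (Hnrnpa1), 20.2% (Srsf5) and 39.3% (Eif1) occur elsewhere, so it is uncertain which copies were measured. Snrpf (-1.03), Eif4ebp1 (-0.70) and the ribosome biogenesis genes Polr1b (-0.91) and Rrp1 (-0.86) fell on the deposited scale only. Of the p53 list Gadd45g rose, and no member of the cell death (16 tested) or nucleotide synthesis (31) lists passed.

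Markers of other cells were scarce. Of 21 cumulus and granulosa markers 11 were named and 1 had a mean of at least 1 FPKM, Amhr2, which fell from 19.5 and 13.9 FPKM to 8.41 and 8.21 FPKM (-0.91), on the deposited scale only. The list summed to 15.1 to 20.8 FPKM in controls and 9.02 to 10.2 FPKM under TMZ, nearly all of it Amhr2, with Col1a1, Cd44, Star, Lum and Inhba below 0.1 FPKM in every library. Of 8 named sperm markers 1 was tested and of 8 named blood markers 3, and none passed, with summed levels of 1.51 to 3.84 and 6.14 to 18.1 FPKM. The part of such cells in the results was not tested.

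Differences between the TMZ libraries were at times larger than any between the groups. Of the 6278 protein-coding genes with few shared stretches, 667 (10.6%) differed by more than 1 on the log2 scale between TMZ libraries A and B, and 260 (4.14%) between the controls. B was the higher in 500 of the 667 and A in 167. Among genes whose controls differed by less than 1 on this scale, Trim21, which encodes an antibody receptor with ubiquitin ligase activity, was at 0.119 and 0.149 FPKM in the controls, 103 FPKM in TMZ library A and 0.0665 FPKM in TMZ library B. The histone deacetylase Hdac3 was at 4.89 and 2.23 FPKM in the controls, 94.7 in TMZ library A and 1.30 in TMZ library B. Both genes were thus high in A alone, and their log2 fold changes of 3.22 and 1.76 did not pass the threshold. Slpi, Stard4 and Dqx1 followed on this side. High in B were the histone gene H4c4 (66.9 and 33.1 FPKM in the controls, 8.62 in A, 99.5 in B), the monocarboxylate transporter family gene Slc16a6 (11.7, 7.43, 3.68 and 26.8 FPKM), Snai1, a repressor of epithelial genes (3.71, 7.58, 2.29 and 17.8 FPKM), Rab19 and Atf7. No gene was chosen here for a difference between TMZ and control.

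The effect of TMZ at the 8-cell stage was set against that at the morula stage in a fit of all 8 libraries, over 8351 genes named in both tables. The stages share no library, and each effect was taken within its own table, since the tables were normalized separately. In the morulae 351 genes were higher (4.2%) and 457 lower (5.47%) past the threshold. The difference of the effects, 8-cell minus morula, was beyond it for 112 genes upwards (1.34%) and 545 downwards (6.53%), with no adjusted p under 0.05 (limma, smallest 0.249), so no single gene was shown to differ between stages after adjustment. Processed pseudogenes and mitochondrial tRNA genes, whose medians were below 0 at the 8-cell stage, had medians above 0 in morulae, while snoRNA genes had -0.72 and -0.24 at the respective stages. Processed pseudogenes had a median of 0.16 in morulae, with 94 of 1127 higher and 23 lower, and a median difference of -0.70, with 335 (29.7%) beyond the threshold downwards and 26 upwards. Protein-coding genes had medians of -0.17 and -0.12 at the 2 stages, and 162 of 6433 (2.52%) differed downwards and 68 upwards.

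Mitochondrial tRNA genes had a median of 0.51 in morulae, where 7 of 17 were higher and 0 lower, and 15 of the 17 differed downwards at the 8-cell stage (median difference -1.72). mt-Ti was at 41.2 and 26.8 FPKM in control and 61.01 and 55.8 FPKM in TMZ-treated morulae, where both TMZ libraries lay above the controls, opposite to the 8-cell stage. mt-Tf was at 39.6 and 22.4 FPKM against 43.1 and 31.6 FPKM in morulae, with overlapping groups, and mt-Tm at 55.3 and 79.0 FPKM against 54.8 and 60.9 FPKM. The level of mt-Tm in 8-cell controls, 654 and 608 FPKM, was above that of either morula group, in tables that were normalized separately. After scaling within each table, the medians were -1.01 and 0.60 for mitochondrial tRNA genes and -0.38 and 0.23 for processed pseudogenes.

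**Figure D5:**
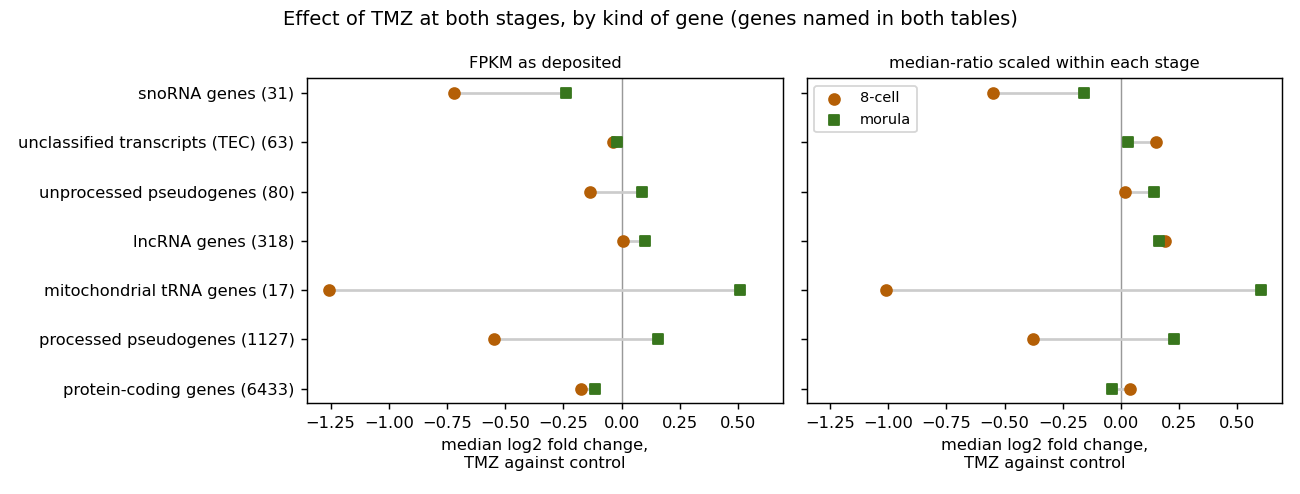
Median log2 fold change of TMZ against control at the 8-cell stage (circles) and the morula stage (squares) by kind of gene, for genes named in both tables, with FPKM as deposited (left) and scaled within each stage (right). For mitochondrial tRNA genes and processed pseudogenes the medians lie on opposite sides of 0, while for protein-coding genes they lie close together.

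Of the protein-coding genes described above, some had a like effect at both stages and others did not. Slc30a2 was at -1.63 in morulae, against -1.93 at the 8-cell stage, and Bst2 at -1.49 against -1.50. Cst7 and Atg10 were at 1.23 and 1.05 in morulae. Polg2 (-1.14 in morulae, difference 2.84), Prl7b1 (-0.39, difference 2.54) and Btg4 (0.84, difference -2.40) had the opposite sign there, each with an adjusted p of the difference (0.249, 0.306 and 0.249, limma) above 0.05.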

How the data were processed

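RNA was amplified with a full-length mRNA kit and sequenced. As the submitters' processing notes and the study's methods give it, the authors used fastp 0.23.4, STAR 2.7.9a against GRCm39 (mm39) and featureCounts 2.0.6, and deposited FPKM without gene names. The Ensembl release is not given in the sources used here. Library totals were solved from FPKM steps of whole fragments. Entries were then aligned by length and identifier order to GENCODE vM39 (57309 genes), at a posterior of at least 0.95. Of 19934 genes named in both tables, 13 with incompatible lengths were dropped. Depths of 32489992 to 64814423 fragments limit the precision of low genes. TMZ and control were compared in R 4.3.3 with limma 3.58.1 (trend, moderated test, Benjamini-Hochberg adjustment) on log2(FPKM + 1) at a mean of at least 1 FPKM, with the deposited and with median-ratio scaled values, and the stages by an interaction over 8 libraries. The code was tested on simulated data. Tables were handled in Python 3.11.15 with pandas 2.3.3, numpy 2.4.6, numba 0.67.0 and Biopython 1.88, and plotted with matplotlib 3.10.9. Sequences were read from GRCm39.

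Named in the text are the 12 largest rises and falls among protein-coding genes with at most 20% of shared 31-base stretches that passed on both scales without overlap, list members that passed on either scale (at most 4 a list), thiolases and the study's β-oxidation and replication genes, and 5 genes highest in each TMZ library over the other. The mitochondrial and pseudogene examples were chosen after their values were seen. The comparison and gene lists were chosen with earlier results of these data known. Alternatives were other scalings, pseudocounts, filters, no trend, voom on recovered fragment counts, all 8 libraries in one fit, a posterior of 0.99 and leaving out each library. Those on kinds of gene were chosen after seeing the data. A list member past the threshold is not reported here.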

Additional observations from a re-analysis of the deposited data

How the results depend on the processing

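With 2 libraries a group, the counts of genes past the threshold moved widely. Of 632 genes in all, 135 higher and 497 lower, the fit of all 8 libraries gave 1039 (887 lower), an adjusted p under 0.05 gave 0, 0 and 0, a filter at 5 FPKM 281, 60 and 221, and voom on recovered fragment counts 401 (301 lower). Scaling gave 268 higher and 280 lower, and quantile normalization 283 and 281. Leaving out a control gave 276 to 286 in all, 83 to 88 higher and 193 to 198 lower, and leaving out a TMZ library 999 to 1837, 295 to 474 and 525 to 1542. After scaling, where 548 passed, the 5 FPKM filter gave 247 (151 higher, 96 lower), leaving out a control 414 to 418, 185 to 265 and 149 to 233, and leaving out a TMZ library 936 to 1650, 582 to 836 and 354 to 814. A fit without 1 library assumes that the lone library varies like the other group.

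For processed pseudogenes (21 higher, 222 lower), scaling gave 45 and 133, quantile normalization 48 and 126, the 5 FPKM filter 4 and 74, voom 10 and 72, leaving out a control 14 and 43 to 65, and leaving out a TMZ library 28 to 80 and 72 to 547. For mitochondrial tRNA genes (14 lower), scaling gave 8, voom 7, leaving out a control 7 to 8 and a TMZ library 10 to 16. For protein-coding genes (62 higher, 171 lower), scaling gave 132 and 79, quantile normalization 134 and 84, the 5 FPKM filter 39 and 101, leaving out a control 33 to 34 and 55 to 90, and leaving out a TMZ library 176 to 207 and 329 to 689. List members passing (9 higher, 37 lower) came to 9 lower after scaling, to 3 to 7 higher and 12 to 20 lower without a control, and to 22 to 30 and 84 to 161 without a TMZ library. The cause of these movements was not tested, except that a stricter filter tests fewer genes.

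Of 81 named values that have a test, scaling kept 47 on their side of the threshold with their sign, and 3 turned from below to above 0, namely Hadh (0.22), Hadhb (0.19) and Scp2 (0.034), none of which passed the threshold. Signs also differed between fits that left out 1 library. Without the one or the other control, Hadh was at -0.36 and 0.33, Hadhb at -0.19 and 0.087 and Hadha at -0.68 and 0.051. Without the one or the other TMZ library, Hadh was at -0.14 and 0.11, Hadhb at -0.29 and 0.19, Scp2 at -0.51 and 0.11 and Echs1 at -0.18 and 0.36. With all 4 libraries these genes were at -0.02 (Hadh), -0.05 (Hadhb), -0.32 (Hadha), -0.20 (Scp2) and 0.09 (Echs1). A pseudocount of 0.1 kept 76 of the 81. Scaling moved 29 of 37 list medians past the limit set for list medians, and a posterior of 0.99 moved none. That limit is narrower than the SD of single entries given above. The median of the thiolases, for example, went from -0.41 to -0.17 with scaling. The difference between stages had no adjusted p under 0.05 as deposited, after scaling or with a pseudocount of 0.1 (657 genes at an unadjusted P under 0.05). No paired analysis was possible because both TMZ columns carry the same replicate number. Depth limits the lowest values, such as those of mt-Tn under TMZ, which rest on few fragments.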
